A study of Mus musculus and synthetic RNA with 74 samples.

Results

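The Clk and Srpk kinases phosphorylate the SR proteins, the serine- and arginine-rich splicing factors that define exons. They were taken as the rows named Clk1, Clk2, Clk3, Clk4, Srpk1 and Srpk2 in the gene tables of mouse embryos. These are 6 genes of 20330 listed for the E2.5 stage (embryonic day 2.5) and of 21199 for E3.5. In the tables of single exons and introns they hold 10 RefSeq transcripts, 85 distinct exons and 81 distinct introns. All 6 genes were listed at both stages.

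The embryos came from crosses between mice heterozygous for a Mettl16 allele that carries a triple-stop cassette in exon 3, from line #2112. Mettl16 encodes an RNA methyltransferase. At E2.5 the genotypes were WT in 5, HET in 14 and KO in 12 embryos, and at E3.5 WT in 18, HET in 9 and KO in 12, with polyadenylated RNA of each single embryo amplified by Smart-seq2. In a separate experiment, a randomized RNA library was incubated with METTL16 protein, in reactions 11 and 12, and each reaction gave 1 input and 1 m6A-IP library, the latter pulled down with an antibody to N6-methyladenosine (m6A).

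For the embryos the values used here are the authors' mean normalized counts over all 31 embryos at E2.5 and all 39 at E3.5. They hold no value per embryo, so no spread, no n and no test stand behind them, and no WT, HET and KO values are compared. The stages were normalized separately and differ in genotype makeup, with WT embryos 5 of 31 at E2.5 and 18 of 39 at E3.5. Values of both stages are therefore set side by side without a test. The mean counts summed to 23557100 at E2.5 and 27145000 at E3.5, with a median gene at 36.4 and 51.6. Markers of the preimplantation embryo were present, with 8 of 9 above the median gene at E2.5 and 9 of 9 at E3.5, for example Krt18 at 1332 and 35173. Of the oocyte, cumulus and blood markers listed, 4 of 7 lay above the median gene at E2.5 and 1 of 8 at E3.5. The oocyte transcript Zp3 stood at 1587 at E2.5 and at 104 at E3.5, while the cumulus marker Inha stood at 0.029 and 0.061 and the blood marker Ptprc at 0.32 and 1.34.

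Srpk proteins phosphorylate the arginine-serine domains of SR proteins in the cytoplasm, and the import receptor encoded by Tnpo3 then carries these to the nucleus. Clk proteins act mainly inside the nucleus and release SR proteins from speckles. The Clk genes control their own messages. Skipping of exon 4 gives shortened proteins without a kinase domain, and Clk1 and Clk4 are known for detained introns, which stay in polyadenylated RNA kept in the nucleus.

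Srpk1 was the most abundant of the 6 kinases at both stages. Its mean normalized count was 7504 at E2.5, above 97.3% of listed genes, and 2630 at E3.5, above 91.5%. Clk1 stood next, at 2250 at E2.5 and 1814 at E3.5. Clk3 followed with 727 and 911. Clk2 had 440 at E2.5 and 324 at E3.5, which made it the lowest of the 6 at the later stage. The lowest at E2.5 was Clk4, with 218, and it stood at 613 at E3.5. Srpk2 was close to Clk4 at both stages, with 232 and 556. All 6 lay above the median gene. In whole embryos, fewer cells with a transcript and less of it per cell cannot be told apart.

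Per kilobase of transcript, the scale on which genes can be compared, Srpk1 had 3058 at E2.5 and 1072 at E3.5, and Clk1 had 1229 and 991. Clk3 had 292 and 365, Clk2 had 190 and 140, and Clk4 had 111 and 313. Srpk2, with the longest transcript (6436 bases), was lowest at both stages, at 36.1 and 86.4. Of these bases 4365 lie in its last exon, and the rank rests on them too. The read density of that exon was 11.0% of the gene's median exon density at E2.5 and 14.3% at E3.5. The order Srpk1, Clk1, Clk3, Clk2, Clk4, Srpk2 at E2.5 thus differed from that at E3.5 only in Clk4, which stood above Clk2. With no spread over embryos, it cannot be said which neighbours in this order differ.

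**Figure D1:**
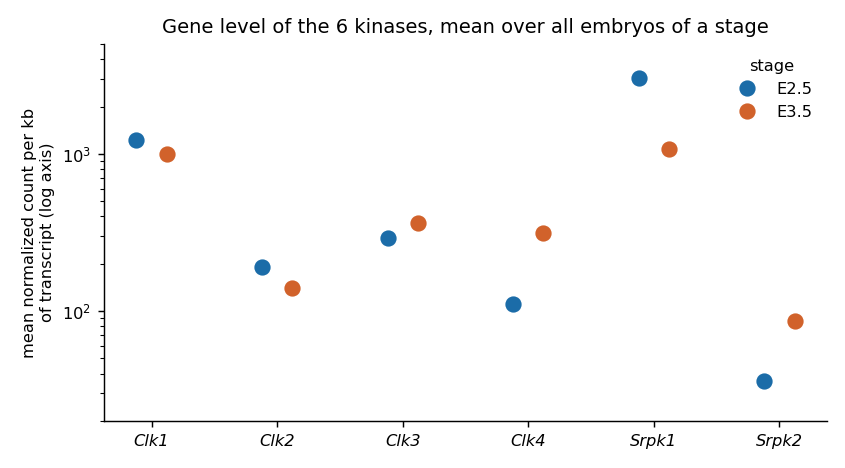
Mean normalized count per kilobase of transcript (log axis) for each kinase gene at E2.5 (blue) and E3.5 (orange), 1 point per stage as the authors' mean over all embryos, with no error bars. Srpk1 was highest at both stages, 3058 and 1072, and Srpk2 lowest, 36.1 and 86.4.

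In counts not divided by transcript length, most partners of these kinases were listed at higher levels than most of them. Values per kilobase are not given for the partners. Of 16 SR and SR-related proteins, 15 lay above the median gene at each stage, with a median of 4087 at E2.5 and 5310 at E3.5. Srsf3 was the highest of these at 16774 and 16520, and Srsf12 the lowest at 6.94 and 24.1. Of 9 other SR kinases, import receptors and phosphatase subunits, 7 lay above the median gene at each stage. Among them the phosphatase gene Ppp1cc had 7646 and 13834, and the receptor gene Tnpo3 had 4629 and 3908. Srpk3, the muscle paralog of Srpk1 and Srpk2, had 4.41 and 7.68 and was the lowest of that list at E2.5.

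The 4 Clk genes each have 13 exons in the transcript used here, and exons 5 to 12 have the same lengths in all 4. These are 67, 117, 167, 95, 130, 83, 80 and 91 bases. The exons can therefore be set beside each other by number. How reads that overlap an exon only in part were counted is not given in the sources used here. Exon counts were divided by the exon's length plus the longest read length of 80 bases, on the assumption that such reads were counted. Exon levels are given on this scale, as normalized counts per kilobase.

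Exon 4, the alternative exon that decides whether a kinase domain is made, is 91 bases long in Clk1 (chr1:58420121-58420211 on mm10, minus strand) and in Clk4 (chr11:51273078-51273168, plus strand). The level of an exon is expressed here as a percentage of the mean level of both neighbouring exons, without reads across splice junctions. Exon 4 of Clk1 had a normalized count of 436 at E2.5 and 156 at E3.5, and its level was 99.8% and 74.8% of its neighbours. Exon 4 of Clk4 had a count of 30.2 and 38.5, and stood at 71.0% and 51.6%. In Clk2 it was at 88.7% and 65.7%, and in Clk3 at 91.7% and 81.9%. The count of exon 4 of Clk2 at E3.5 was only 7.06, between neighbours at 10.2 and 14.3. The percentage was lower at E3.5 than at E2.5 in each of the 4 genes, and lowest in Clk4 at both stages. The share of all exons that were lower at E3.5 was not counted. The exons 4 of Clk1 and Clk4 are 93.4% identical in sequence, the only pair of exons of different kinase genes with at least 85% identity, so reads of one could have been placed on the other.

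The exon of 95 bases, exon 8, stood apart in Clk1 and Clk4. In Clk1 (chr1:58414590-58414684) its normalized count was 195 at E2.5, between exons 7 and 9 at 331 and 364. At E3.5 it had 14.9, while exon 7 had 134 and exon 9 had 107. On the scale of neighbouring exons this was 72.6% at E2.5 and 16.2% at E3.5. In Clk4 (chr11:51275770-51275864) exon 8 had 15.6 at E2.5, with 30.9 and 35.6 in its neighbours. At E3.5 it had 6.11, with 35.3 and 81.2 in its neighbours, so that its level was 60.4% at E2.5 and 13.2% at E3.5.

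The same exon had no such dip in the other pair. It was at 105% of its neighbours at E2.5 in Clk2 and at 106% in Clk3, and at 85.2% and 119% at E3.5. Exon 8 of Clk3 has copies on chromosome 19 with 95.8% and 96.8% identity, and their part in its count was not tested. At E3.5, 64 internal exons of the 6 kinases had a neighbouring count of at least 10 on both sides. Of these, 2 were under 25% of their neighbours, exon 8 of Clk1 and that of Clk4. The next lowest was at 51.6%. Over all genes 1.37% of such exons were under 25% at E3.5, and 0.842% at E2.5, where 0 of 66 kinase exons were. Summed over the 39 embryos of E3.5, exon 8 of Clk1 had about 582 normalized reads and that of Clk4 about 238.

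Exon 8 of Clk1 and Clk4 is 75.8% identical. On the chromosomes kept in the search, no other place matched either with 85% identity or more over 70% of its length. Its borders are shown because the dip is bounded by them. Each line gives 20 bases of intron and the first 3 bases of exon 8 at its 3′ splice site, or the last 3 bases of exon 8 and 6 bases of intron at its 5′ splice site, with exon bases in capitals, from GRCm38.
Clk1 3′ splice site, chr1:58414682-58414704, minus strand: attatgtgtactttctccagTTT
Clk4 3′ splice site, chr11:51275750-51275772, plus strand: gttttctgtttccgttgtagTTT
Clk2 3′ splice site, chr3:89174177-89174199, plus strand: tctagccttctcccctgcagTCC
Clk3 3′ splice site, chr9:57753593-57753615, minus strand: tgtgcttctccctctcctagTTC
Clk1 5′ splice site, chr1:58414584-58414592, minus strand: ATGgtgagc
Clk4 5′ splice site, chr11:51275862-51275870, plus strand: ATGgtaagt
Clk2 5′ splice site, chr3:89174289-89174297, plus strand: AAGgtaaga
Clk3 5′ splice site, chr9:57753495-57753503, minus strand: AAGgtagac
All 4 exons are bordered by AG and GT. The exon bases printed at the 2 borders are the same in Clk1 and Clk4, and differ from those of Clk2 and Clk3.

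**Figure D2:**
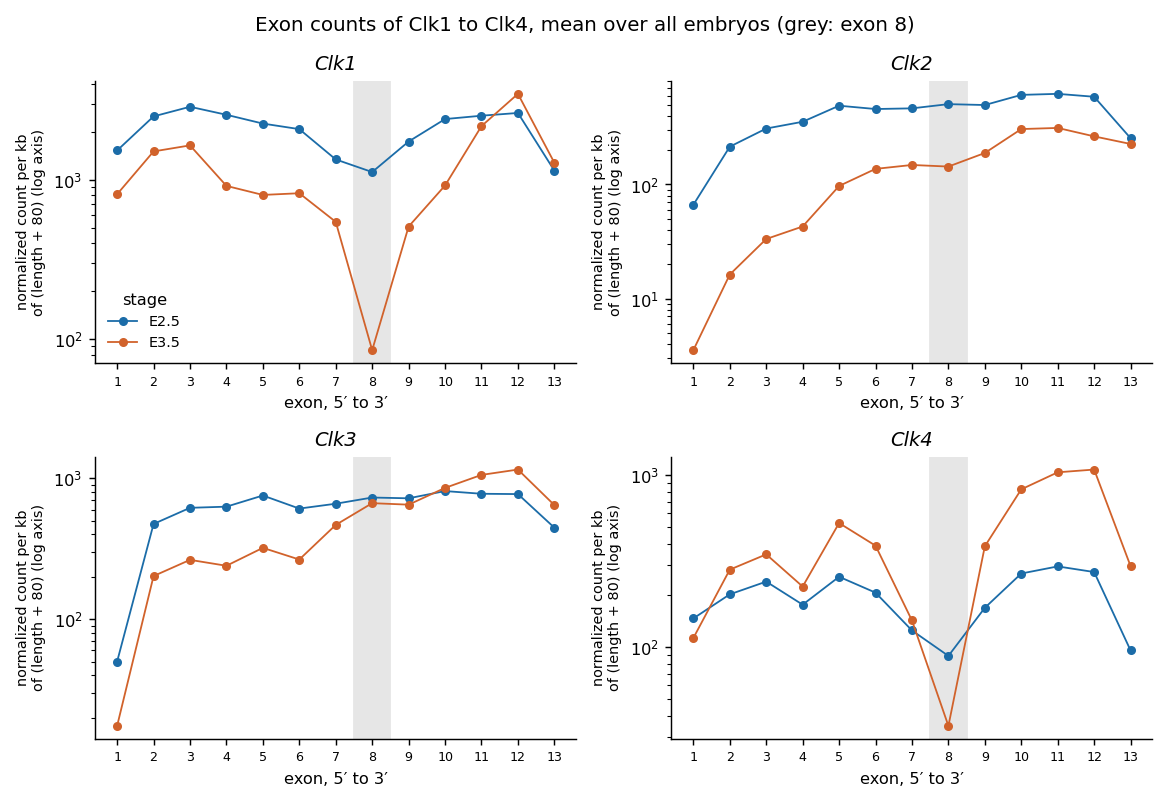
Normalized count per kilobase of exon length plus 80 bases (log axis) for exons 1 to 13 of Clk1 to Clk4, as the authors' means over all embryos at E2.5 (blue) and E3.5 (orange), with exon 8 shaded and no error bars. At E3.5 exon 8 of Clk1 and Clk4 stood at 16.2% and 13.2% of its neighbours, and all 4 genes ended higher than they began.

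Exons at the 3′ end of the Clk genes were higher than those at the 5′ end at E3.5. The transcript of each gene was split at the place, with at least 3 exons on each side, where the medians of the exon levels differed most. In Clk2 exons 4 to 13 had a median level 10.4 times that of exons 1 to 3 at E3.5, and 2.30 times at E2.5. The first exons of Clk2 had counts of 1.38, 4.06 and 10.2 at E3.5, and its last exon had 175. Clk3 and Clk4 had 3.61 and 3.31 times higher levels in their last exons at E3.5, and Clk1 had 2.65 times. At E2.5, Clk1 was instead 1.37 times higher in its first 6 exons.

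Such slopes were common in the whole table. Among 4303 genes with at least 8 exons and enough reads at E3.5, 42.8% were at least 3-fold higher at the 3′ end, against 10.7% of 4601 genes at E2.5. Of the 6 kinases 3 were so at E3.5 and 0 at E2.5. The slope of Clk2 was steep even so, with 7.92% of genes having a lower ratio of 5′ to 3′ exons. Clk3 had its lowest exon at the 5′ end as well, exon 1, at 4.8% of the gene's median density per base at E2.5 and 2.7% at E3.5. Its exons 5, 8, 9, 11 and 12 have copies on chromosome 19 with 85.6% to 96.8% identity, and the part of these copies in the counts was not tested.

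Counted per base of length alone, the highest exon of Clk1 was exon 11 at E2.5, at 135% of the gene's median exon density, and exon 12 at E3.5, at 378%. The lowest was exon 13 at E2.5, at 37.4%, and exon 8 at E3.5, at 9.1%. In Clk2 exon 11 was highest, at 161% and 271%, and exon 1 lowest, at 10.8% and 1.9%. The highest of Clk3 was exon 5 at E2.5, at 144%, and exon 12 at E3.5, at 308%. In Clk4 exon 11 was highest, at 180% and 442%, and the lowest was exon 13 at E2.5, at 34.0%, and exon 8 at E3.5, at 13.6%. The exon of lowest density thus changed between stages in Clk1 and Clk4, to exon 8 in both, and was exon 1 at both stages in Clk2 and Clk3.

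Detained introns would appear as reads inside introns. The read density of each intron, after leaving out 10 bases at either end, was divided by that of both flanking exons. At E2.5, 1 of 81 kinase introns reached 10% of its flanking exons, against 4.8% of 98940 introns of the table. At E3.5, 6 of 80 did, against 9.19% of 94673. Without introns that overlap an annotated exon, the counts were 1 of 72 against 3.16%, and 6 of 71 against 7.29%. The counts were also made with 80 bases added to the length of each flanking exon but none to that of the intron. In these, 5 of 81 kinase introns reached 10% at E2.5 against 6.82% of the table, and 13 of 80 at E3.5 against 13.8%. Without introns that overlap an annotated exon, these counts were 3 of 72 against 4.81%, and 12 of 71 against 11.6%. The median kinase intron without an annotated exon stood at 0.302% at E2.5 and 0.89% at E3.5, and the median of all such introns at 0.343% and 0.858%.

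Clk2 held 4 of the 6 introns at E3.5. Its last intron, intron 12 (chr3:89175736-89176393, 658 bases), had a normalized count of 20.7 at E2.5 and 51.4 at E3.5. Its density was 8.56% of the flanking exons at E2.5 and 28.7% at E3.5, with an exact 95% binomial interval of 27.3% to 30.1% that covers counting error only. This was the highest of all eligible kinase introns, above 98.2% of introns without an annotated exon. Intron 11 of Clk2 (173 bases) was at 1.70% and 10.2%. Intron 2 was listed with 2 lengths, 1490 and 1493 bases, for 2 positions of its 3′ end, and both stood at 0.52% at E2.5. At E3.5 they were at 19.6% and 19.5%. These 2 were counted apart although they share their reads, so the 6 introns are 5 places in the genome. The exons beside intron 2 had counts of only 4.06 and 10.2 at E3.5, and against the gene's median exon density it stood at 3.04%. Intron 1 of Clk2, with a count of 17.5 at E3.5 beside exons that summed to 5.44, was not eligible. Intron 5, the lowest of Clk2, was at 0.301% and 0.827%.

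The other Clk genes had 1 such intron at most. Intron 8 of Clk3 (chr9:57753401-57753500), only 100 bases long, was at 6.70% at E2.5 and 12.4% at E3.5. Intron 12 of Clk4 (chr11:51281200-51281276, 77 bases) was at 5.10% and 10.5%. Both are short and their own counts were low, 6.65 and 11.2 for that of Clk3 and 0.505 and 3.61 for that of Clk4. The lowest introns of these genes were intron 6 of Clk3 at E2.5, at 0.0269%, intron 2 of Clk3 at E3.5, at 0.354%, and intron 11 of Clk4, at 0.0929% and 0.113%. The last 3 introns of Clk3 overlap exons of Edc3, which runs on the opposite strand, and libraries without strand cannot tell the 2 genes apart. Its intron 12, at 4.87% and 8.16%, is among these.

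Clk1, the classic case of detained introns, had none at 10%. Its introns 3 and 4, on both sides of exon 4, had counts of 32.8 and 6.47 at E2.5. At E3.5 these were 27.1 and 0.461. They stood at 0.931% and 0.363% of their flanking exons at E2.5, and at 1.53% and 0.0725% at E3.5. The matching introns of Clk4 were at 2.41% and 2.65% at E2.5, and at 2.95% and 0.995% at E3.5. In a shorter Clk1 transcript that lacks exon 4, intron 3 runs across that exon and had a count of 459 at E2.5, where exon 4 alone had 436. The highest Clk1 intron without an annotated exon was intron 6 at E2.5, at 1.80%, and intron 7, before exon 8, at E3.5, at 6.16%. Intron 6 stood at 4.73% at E3.5 and intron 7 at 0.487% at E2.5. The count of intron 7 was 22.5 and 80.9, while that of exon 8 was 195 and 14.9. Exon 8 is one of its flanking exons, and against the gene's median exon density intron 7 stood at 2.04% at E3.5. The lowest was intron 1, at 0.0802% and 0.145%.

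The Srpk introns were low. In Srpk1 all 15 were under 10% at both stages, with medians of 0.166% and 0.2%, and the highest was intron 10, at 2.86% and 5.41%, or at 0.803% of the gene's median exon density at E3.5. Its lowest was intron 11, with 0.0202% at E3.5. In Srpk2 the last intron, intron 14 (chr5:23507721-23513951), stood at 11.96% at E2.5, the only kinase intron past 10% at that stage, and at 9.05% at E3.5. Its downstream exon is 4365 bases long with a count of 47.8 at E2.5, and overlaps Kmt2e on the opposite strand. Against the median exon density of Srpk2 the intron stood at 1.54%. Intron 11 of Srpk2, 95 bases long, was listed at 0 at both stages.

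**Figure D3:**
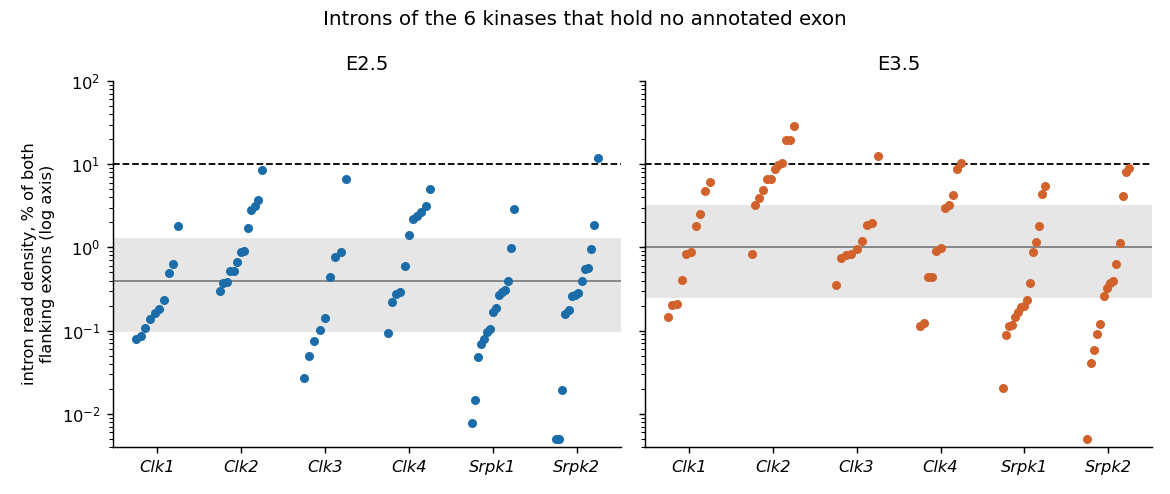
Read density of each kinase intron without an annotated exon as a percentage of both flanking exons (log axis), by gene at E2.5 (left) and E3.5 (right), with introns under 0.005% drawn at 0.005%, the dashed line at 10%, and the grey line and band for the median and the range between the quartiles of all such introns. Only intron 14 of Srpk2 passed 10% at E2.5, and intron 12 of Clk2 was highest at E3.5, at 28.7%.

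Other genes known for detained introns, and the partners of the kinases, were counted in the same way. Of introns without an annotated exon in Mat2a, Ogt, Srsf5, Srsf7, Tra2a, Tia1 and Ddx5, 0 of 71 were at 10% at E2.5 and 1 of 74 at E3.5. For the SR proteins the counts were 0 of 104 and 3 of 102, and for the other SR kinases and import genes 0 of 83 and 2 of 82. They were 0 of 38 at both stages for the embryo markers, and 0 of 13 and 1 of 8 for the oocyte and cumulus markers. Srsf5, Srsf7 and Tra2a stand in both lists. Mat2a, the methionine adenosyltransferase gene, had the highest level of the detained intron list, 29053 at E2.5, and Ddx5 was next at 25831.

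The Srpk genes did not follow the slope of the Clk genes. Both had a step down inside the gene. From the fourth exon of Srpk1, and the third of Srpk2, the genes share exon lengths of 109, 88, 88, 107, 166 and 26 bases, and further on 101, 108, 70 and 93. The step was set at the exon of 26 bases in both after the values were seen. In Srpk1, exons 1 to 8 had normalized counts from 1104 to 2153 at E2.5, and exons 10 to 15 from 433 to 951. At E3.5 the ranges were 163 to 666 and 66.4 to 165. The last exon, left out of these ranges in both genes, had 1088 and 531 in Srpk1. The median level on the scale of length plus 80 bases was 3.59 times higher before the step at E2.5 and 3.68 times at E3.5.

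In Srpk2, exon 1 was low, with a count of 10.7 at E2.5 and 22.8 at E3.5. Exons 2 to 7 had counts from 54.8 to 70.3 at E2.5, and exons 9 to 14 from 6.95 to 16.98. At E3.5 they had 58.0 to 170, and 7.02 to 22.6. The level of exon 1, 32.9 and 70.02, lay within the range of exons 9 to 14 at both stages, 30.99 to 52.9 and 38.8 to 94.6, while the levels of exons 2 to 7 lay above that range. The median level of exons 1 to 7 was 7.40 and 7.49 times that of exons 9 to 14, and without exon 1 it was 7.63 and 9.13 times. In Srpk1 the values without exon 1 were 3.67 and 4.16 times. The exon of 26 bases itself had a count of 656 and 148 in Srpk1, and of 16.5 and 20.1 in Srpk2. Per base of length alone it was the highest exon of Srpk1, at 184% and 196% of the median exon density, and the lowest were exon 16 at E2.5, at 12.2%, and exon 11 at E3.5, at 11.6%. In Srpk2 exon 5 was highest, at 702% and 881%, and the last exon lowest, at 11.0% and 14.3%.

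The exon of 26 bases marks the same place in both genes and is given whole, from GRCm38, with all bases in capitals as exon bases. The 2 are 73.1% identical.
Srpk1 exon 9, chr17:28600869-28600894, minus strand: TCAGCACTGCTCCACAGCCTAAGCCA
Srpk2 exon 8, chr5:23526790-23526815, minus strand: TGAGTACGGCTCCACAGCAAAAACCT

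By the split described above, 5′ exons were at least 3-fold higher in 2 of the 6 kinases at E2.5, Srpk1 at 3.67 and Srpk2 at 7.57, against 9.19% of 4601 genes. At E3.5 this was so in 1 of 6, Srpk2 at 8.42, with Srpk1 at 2.90, against 9.13% of 4303 genes. Srpk2 had a higher ratio than 97.7% of genes at E2.5 and 97.6% at E3.5, and Srpk1 than 93.1% and 90.3%. These values belong to the split and not to the step set above. The split fell after exon 10 of Srpk1 at E2.5 and after its exon 8 at E3.5. In Srpk2 it fell after exon 6 at both stages. Only that of Srpk1 at E3.5 lay directly before the exon at which the step was set.

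Exons 10 to 16 of Srpk1 have a copy on chromosome X (chrX:88755135-88756697), 89.8% to 94.6% identical. For exons 1 to 9 none was found on the chromosomes kept in the search. How reads that fit 2 places were counted is not given in the sources used here. No such copy was found on the chromosomes kept for any exon of Srpk2. GENCODE lists for each gene 1 transcript that holds at least part of the exon of 166 bases and ends before that of 26 bases. That of Srpk1, Srpk1-208, runs from the gene's start into intron 8, and this intron stood at 0.185% of its flanking exons at E2.5 and 0.19% at E3.5. Another protein-coding transcript of Srpk1 extends the exon of 26 bases into intron 9 and ends there, and intron 9 stood at 0.978% and 4.35%. That of Srpk2, Srpk2-202, ends within the exon of 166 bases and is marked with no found 3′ end. The part of copies and of short transcripts in the step was not tested.

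**Figure D4:**
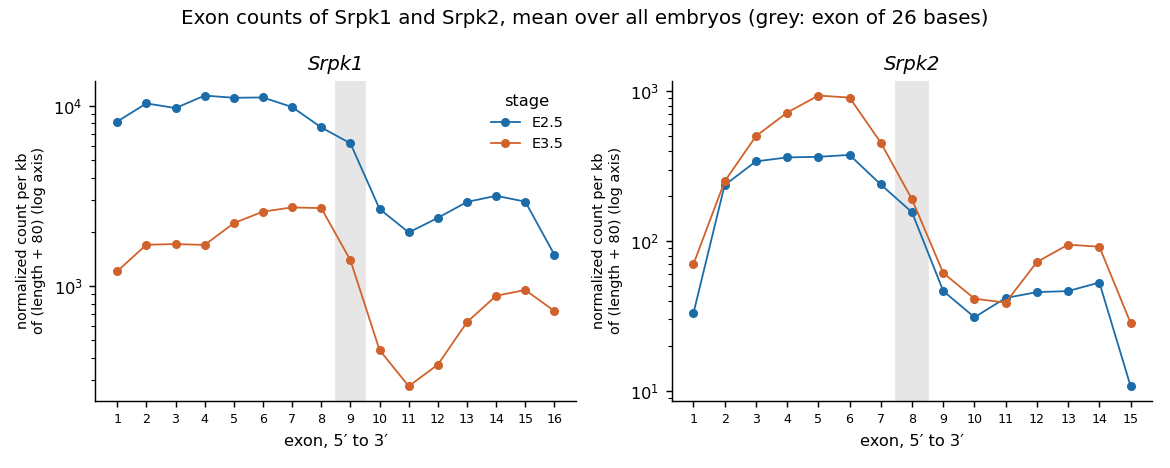
Normalized count per kilobase of exon length plus 80 bases (log axis) along the exons of Srpk1 (left) and Srpk2 (right), as the authors' means over all embryos at E2.5 (blue) and E3.5 (orange), with the exon of 26 bases shaded and no error bars. Without the last exon, the median level before the shaded exon was 3.59 and 3.68 times that after it in Srpk1, and 7.40 and 7.49 times in Srpk2, where exon 1 was as low as the exons after it.

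METTL16 methylates the A at position 4 of the nonamer TACAGAGAA when the RNA around it is folded in a suitable way, as in the hairpins of Mat2a. The sense strand of the 6 genes was searched for these letters, from the start to the end of each gene, on GRCm38. Of the 6 genes 5 held at least 1 site, and Clk1 held none. The 8 sites in 204280 bases are 3.92 per 100 kb, where all genes of the table had 2.08 per 100 kb and 35.7% of them at least 1 site. All 8 lay in introns. Each is shown with 11 bases before and 10 after, the layout of the in vitro library, with the nonamer in capitals.
Clk2 intron 6, chr3:89171214-89171243, plus strand: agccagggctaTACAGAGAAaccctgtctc
Clk3 intron 5, chr9:57757438-57757467, minus strand: attgctttagtTACAGAGAActggtatcct
Clk4 intron 9, chr11:51276309-51276338, plus strand: tgttaggaggaTACAGAGAAgagttatgcg
Srpk1 intron 12, chr17:28596759-28596788, minus strand: caattattgctTACAGAGAAccagaatttg
Srpk2 intron 5, chr5:23543948-23543977, minus strand: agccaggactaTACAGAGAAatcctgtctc
Srpk2 intron 2, chr5:23560193-23560222, minus strand: agagctagagtTACAGAGAAaccctttctc
Srpk2 intron 1, chr5:23568799-23568828, minus strand: agccagggctaTACAGAGAAacccttgtct
Srpk2 intron 1, chr5:23606731-23606760, minus strand: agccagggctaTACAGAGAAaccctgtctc
The second site of Srpk2 intron 1 has the same 30 bases as the site of Clk2. These 2 and the other 3 sites of Srpk2 lie wholly in sequence that the assembly masks as repeats, and the nonamers of Clk3, Clk4 and Srpk1 do not. The Clk4 site begins 72 bases into intron 9 (chr11:51276248-51277852), which had a count of 8.22 at E2.5 and 68.8 at E3.5, the highest count of its introns without an annotated exon at the later stage. It stood at 1.39% and 4.28% of its flanking exons.

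The in vitro table gives reads per predicted structure, divided by the authors by a size factor of each library, and 36835 structures are listed. Folded with RNAfold, the 8 windows take 6 structures, all of them in the table. A structure is shared by many RNAs of the library, so its value is no measurement of a kinase RNA. By limma's moderated test on log2 of the value plus 5, at a Benjamini-Hochberg adjusted p under 0.1, 12.5% of all structures were enriched in m6A-IP and 27.2% were depleted, 4621 and 10036. With libraries scaled to their totals these became 8299 and 9130, and the log2 difference at the median over all structures went from -0.27 to -0.06. The m6A-IP library of reaction 12 was the coarsest, with 843 structures at 0 and 6.93 as its smallest value above 0, where the other libraries had no structure at 0 and smallest values of 1.17 to 3.67. The paper lists far fewer filtered reads for this library than for the others. The replicates are 2 reactions, and nothing in the labels says how separately these were prepared.

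Of the 6 structures, 1 was enriched, 3 were depleted and 2 did not pass the test. The enriched one was that of Srpk2 intron 2, with 740 normalized reads in the input of reaction 11 and 825 in that of reaction 12, and 2024 and 1906 in the m6A-IP libraries. Both m6A-IP values lay above both inputs. The log2 difference of m6A-IP minus input was 1.32 ± 0.15 (SE) with a limma adjusted p of 0.0137, above that of 97.2% of structures. Without the input of reaction 11 the adjusted p of limma was 0.11. In this fold the methylated A, position 15 of the window, is unpaired and directly followed by a stem of 6 pairs.

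The structure of Clk3 intron 5 was depleted. It had 447 and 451 in the inputs and 145 and 111 in the m6A-IP libraries. The log2 difference was -1.79 ± 0.18 (SE) with a limma adjusted p of 0.0137, and 2.58% of structures were lower. The structure of Srpk2 intron 5 had 47.7 and 41.5 in the inputs, and 21.6 and 20.8 in m6A-IP. Its log2 difference was -0.92 ± 0.24 (SE) with a limma adjusted p of 0.042, and 19.9% of structures were lower. Without the input of reaction 11 or that of reaction 12 it did not pass, with a limma adjusted p of 0.503 and 0.376.

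The window shared by Clk2 intron 6 and Srpk2 intron 1 had 331 and 383 in the inputs, and 263 and 236 in m6A-IP. Its log2 difference was -0.51 ± 0.17 (SE), and 37.7% of structures were lower. The limma adjusted p of 0.0701 rose to 0.118 when libraries were scaled to their totals. With the reaction as a block it was 0.112. It was also lost without the input of reaction 11 or 12, with a limma adjusted p of 0.475 and 0.663. The other structure of Srpk2 intron 1 had 475 and 476 against 374 and 381, a log2 difference of -0.33 ± 0.14 (SE) and a limma adjusted p of 0.138.

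The windows of Clk4 intron 9 and Srpk1 intron 12 were predicted to be without any pair. This open state took 12.6% of the values in each input library, and 12.5% and 12.4% in m6A-IP. Its log2 difference was -0.25 ± 0.53 (SE), with a limma adjusted p of 0.736, at the median of all structures. Scaled to totals it was -0.02, with a limma adjusted p of 0.0368. With the m6A-IP library of reaction 11 left out the log2 difference was -0.43, and with that of reaction 12 left out -0.07. The median over all structures was then -0.40 and -0.11, and it was -0.06 with libraries scaled to totals. The open structure thus moved with this median.

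**Figure D5:**
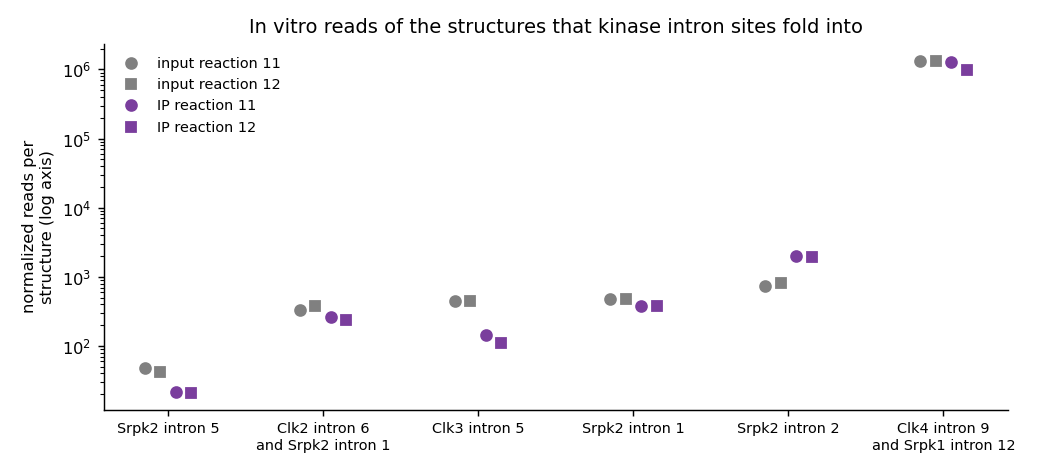
Normalized reads per structure (log axis) for the 6 structures that the kinase intron windows fold into, with input libraries in grey and m6A-IP libraries in purple, reaction 11 as circles and reaction 12 as squares, 1 point per library. The structure of Srpk2 intron 2 was higher in both m6A-IP libraries, 2024 and 1906, than in both inputs, 740 and 825, and the other 5 were lower in both.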

How the data were processed

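For the embryos the deposited signal is the mean normalized count that the authors obtained with DESeq2 over all embryos of a stage. Per the methods, the authors estimated gene counts with Salmon 0.7.2 on RefSeq transcripts (mm10), and aligned reads with STAR and counted them on exons and introns with featureCounts, without strand. Introns were shortened by 10 bases at each end, which is stated for Mat2a and was assumed for all. For the in vitro libraries the deposited signal is reads per RNAfold structure, which the authors divided by DESeq2 1.18.1 size factors. The other columns hold the authors' fold changes, test statistics and p-values between genotypes or libraries. They were not used, so the planned comparison of KO with WT and HET was not run. The whole tables of 74 samples gave the backgrounds.

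The transcript with the most exons was used for each gene. Intron ratios needed a counted length of at least 50 bases and flanking exons summing to at least 10 normalized counts. The in vitro comparison of 2 m6A-IP with 2 input libraries used limma 3.58.1 under R 4.3.3 with a mean-variance trend, and this step was tested on simulated data. Per the methods, part of each methylation reaction was kept as input and the rest was immunoprecipitated, so libraries of the same number were taken as a pair. Over structures the deviations of the pair of reaction 11 correlated at 0.0151. The comparison was run without this pairing, as the authors' was, and with it as an alternative. Windows were folded with RNAfold 2.7.2, exon copies found with blastn 2.17.0, and overlaps with GENCODE vM21 exons found with bedtools 2.31.1. The exon copies do not cover the whole genome, because hits on part of it were left out. The paper lists reads per embryo, which were not used here. Intervals cover counting error only, since PCR reads are not independent molecules.

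The members and lists were chosen with earlier results of these data known. The named features were all 6 genes, introns at 10% or more, the highest and lowest intron and exon per gene, and at most 4 genes per list. From the list of genes known for detained introns 1 gene is not reported here, and the counts of that list are without it. Exon 8, the neighbour scale and the Srpk step were chosen after their values were seen. The alternatives tried are given in the closing section.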

Additional observations from a re-analysis of the deposited data

How the results depend on the processing

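Counts of kinase introns rested on how the ratio was made. At E2.5 the 1 intron at 10% became 0 with the gene's median exon density as denominator and 0 at a threshold of 20%. It became 5 with 80 bases added to each flanking exon, or 3 without introns that overlap an annotated exon, an alternative chosen after seeing the data. At E3.5 the 6 introns became 1 at a threshold of 20%, 3 with full intron lengths, and 13 or 12 with 80 bases added. With the gene's median exon density as denominator they became 7, and the set changed. Introns 9, 10 and 11 of Clk2 then stood at 17.95%, 23.3% and 24.7%, and its intron 2 fell to 3.04% and 3.03%. With flanking exons of at least 50, 1 and 4 remained at 10%. Intron 12 of Clk2 stayed between 27.8% and 34.9% at E3.5 in these alternatives. Summed exon rows gave higher levels than Salmon for all 6 kinases at both stages, for example 5655 for Clk1 at E2.5.

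In vitro, scaling to library totals gave 8299 enriched structures, -0.28 for the Clk2 window (limma adjusted p = 0.118) and -0.020 for the open structure. With the reaction number as replicate block the Clk2 window stayed at -0.51 but lost its call, with a limma adjusted p of 0.112. The block changed no other call among the 6 structures and gave 4282 enriched and 10863 depleted structures. Leaving out each library in turn gave 855 to 11188 enriched and 1994 to 20642 depleted structures. The log2 difference then ranged from -0.61 to -0.41 for the Clk2 window, from -0.43 to -0.074 for the open structure, from -1.01 to -0.83 for Srpk2 intron 5, from 1.25 to 1.40 for Srpk2 intron 2 and from -0.34 to -0.31 for the other structure of Srpk2 intron 1. A group left with 1 library is assumed to vary like the other. The cause of these changes was not tested. A count model on reads calculated back from the in vitro values was not run.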
